A study of Astyanax mexicanus with 6 samples.

Results

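The Mexican tetra, Astyanax mexicanus, lives as an eyed river form and as eyeless forms in separate caves. Genes raised in the liver of Pachon cave fish alone are described here. Mean levels in Tinaja cave fish and in the river form, with a small constant added, were held within 2-fold of each other. RNA of liver tissue was sequenced in 6 libraries: 2 from Pachon cave fish, 2 from Tinaja cave fish and 2 from Surface fish, the river form. The labels give the population, the tissue and a replicate number. They do not say whether a library came from 1 fish or from a pool, nor the sex, age or feeding state, so any of these may differ between libraries. No perturbation is labelled for any of them.

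The members were chosen from the measured values. Levels are CPM, the reads of a gene per 1000000 reads of the library after scaling by TMM, a method that assumes that most genes do not change. A gene was a member when the lower of its 2 Pachon values was at least 2 CPM and at least 3 times the highest of the 4 Tinaja and Surface values. The means of Tinaja and Surface, each with 0.5 CPM added, also had to lie within 2-fold of each other. The rule took 83 of the 27420 genes in the table, and 10123 genes had at least 2 CPM in both Pachon libraries. All 6 libraries were used in this choice, so levels and differences of the members are a description and carry no test.

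The liver stores glycogen and fat, makes most proteins of the blood plasma and clears foreign compounds. Cave populations of this species are known for resisting starvation and for storing fat in the body and liver, traits studied as adaptations to a food-poor habitat. The caves were colonised by surface ancestors, and traits of cave fish are shared by several caves or found in single ones. In whole tissue, more cells of a type that makes a transcript and more of that transcript per cell cannot be told apart.

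The table gives Ensembl identifiers without names, and 0 of them could be paired with a symbol through the reference used here. No role, pathway, cell type or sequence is therefore given for any member, and the labelled tissue could not be checked against marker genes. Members are called by their rank in mean Pachon CPM, from 1 to 83, and 2 are printed by identifier. Gene lengths were not used here, so a rank orders genes by their share of the reads and not by their number of transcripts.

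Library totals ran from 24809335 to 25945144 counts in Pachon, 22168622 to 24865389 in Tinaja and 24702895 to 29521610 in Surface. The TMM factors were 1.21 and 1.33 in Pachon, 1.01 and 0.825 in Tinaja, and 0.822 and 0.905 in Surface, so that scaling lowered Pachon CPM relative to the others. Every member had at least 65 reads in each Pachon library, and counting error in Pachon was small beside the differences between Pachon and the other populations. It need not be small beside narrow gaps between the Pachon libraries, or beside the distance of a gene from a limit of the rule.

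Together the 83 genes made up a small part of liver RNA in every population. They took 0.158% and 0.18% of the counts in Pachon 1 and 2. The shares were 0.013% and 0.00861% in Tinaja 1 and 2, and 0.00876% and 0.00911% in Surface 1 and 2. Both Pachon libraries lay more than 10-fold above every other library, a gap in the direction that the choice of members fixed. Summed over the members, the level was 1307 and 1352 CPM in Pachon, 129 and 104 CPM in Tinaja, and 107 and 101 CPM in Surface.

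Most members were weakly read even where they were highest. The mean Pachon level ran from 2.15 to 207 CPM with a median of 6.37 CPM, and 31 members lay under 5 CPM, 23 from 5 to 10, 23 from 10 to 50, and 6 at 50 or above. The 5 members with the highest Pachon means held 45.1% of the summed Pachon level, and rank 1 alone held 15.5%. The median of the members' means was 0.439 CPM in Tinaja and 0.32 CPM in Surface.

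**Figure D1:**
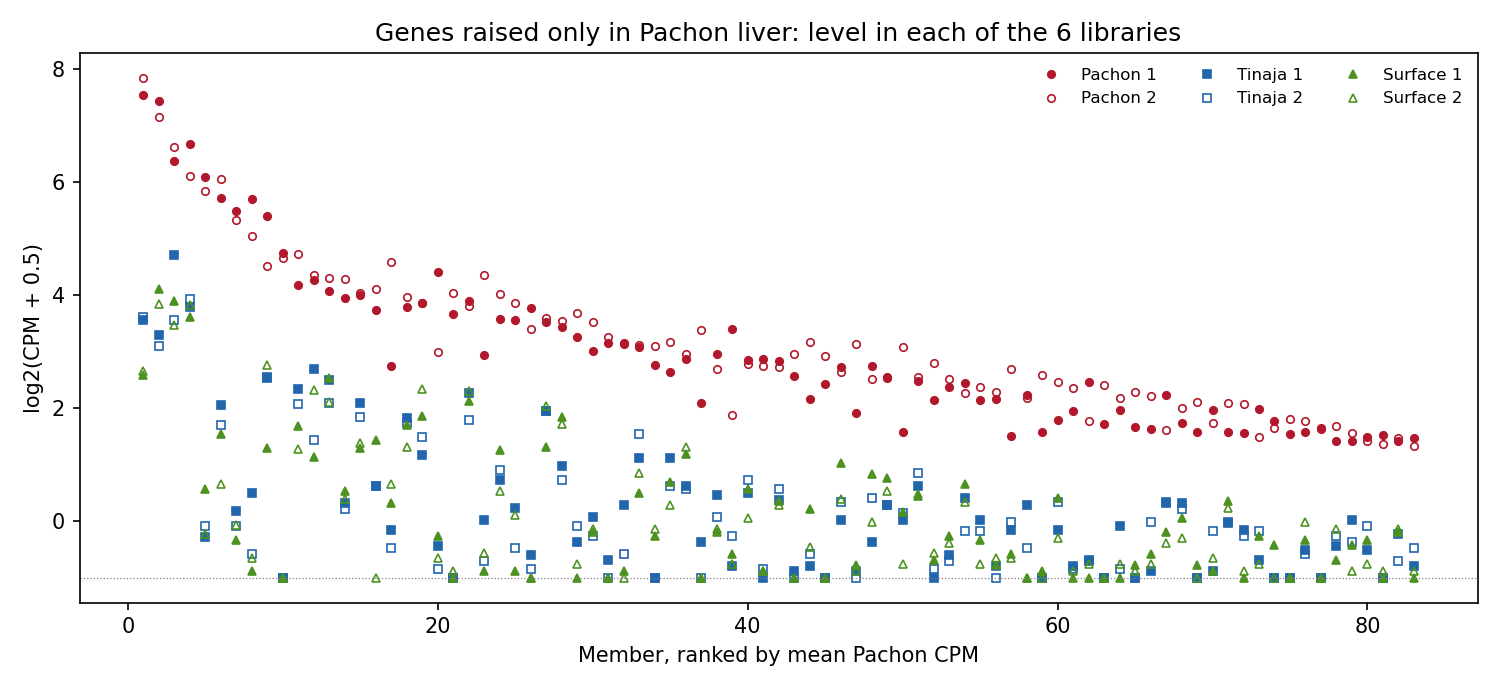
Level of each member in the 6 libraries, as log2(CPM + 0.5), with members ordered by mean Pachon CPM. Filled and open symbols are replicates 1 and 2, and the dotted line marks 0 CPM. Both Pachon points stand above all Tinaja and Surface points for each of the 83 members, as the rule requires, from a mean of 207 CPM at the left to 2.15 CPM at the right.

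The members fell into a continuous range, without a gap between nearly silent and weakly read genes. The highest Tinaja or Surface value was under 0.1 CPM for 14 members, from 0.1 to 1 CPM for 42, and at least 1 CPM for 27. The ratio of the lower Pachon value to that highest value was under 4 for 20 members, from 4 to 5 for 8, from 5 to 10 for 20, and at least 10 for 35. Its median was 6.78. Among the 35 were 18 with a ratio of at least 30 or with no read outside Pachon.

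Transcripts of 5 members were read in Pachon liver and had 0 reads in all 4 Tinaja and Surface libraries. ENSAMXG00000000107, rank 10, had 26.3 and 24.6 CPM (786 and 850 reads) in Pachon, a mean of 25.4 ± 1.21 (SD, n = 2), and 0 reads in both Tinaja and both Surface libraries. Against a floor of 3 reads pooled over those 4 libraries, its Pachon level was 761-fold higher. This bound takes the floor as given, carries no confidence level and leaves out counting error in Pachon. The other 4 had Pachon values from 2.41 to 7.08 CPM and bounds of this kind from 78.2-fold to 182-fold. Such a bound is set by the Pachon level and by depth, and says nothing on which of the 5 was silent more fully.

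A further 8 members had 1 to 3 reads in the 4 Tinaja and Surface libraries together. Rank 21 had 12.1 and 15.8 CPM (362 and 547 reads) in Pachon, 0 and 0 reads in Tinaja, and 0 and 1 read in Surface. The ratio of its pooled reads was 1269, with an exact binomial counting interval (95%) of 227 to 50180, a width that shows how little a single read fixes. Rank 31 had 8.32 and 9.01 CPM in Pachon, 3 and 0 reads in Tinaja, and 0 reads in both Surface libraries, a pooled ratio of 261 (counting interval 88.9 to 1270). Over the 8 genes the pooled ratio ran from 107 to 1269. These intervals and floors rest on pooled reads and leave out the spread between libraries. The intervals cover counting error only. The reads carry no molecular identifiers, so reads and not molecules are counted.

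Some of the better read members were also nearly silent outside Pachon. Rank 5 had 67.7 and 56.5 CPM in Pachon, 0.317 and 0.438 CPM in Tinaja, and 0.989 and 0.358 CPM in Surface. Rank 7 had 44.4 and 39.7 CPM in Pachon, 0.635 and 0.438 CPM in Tinaja, and 0.289 and 0.447 CPM in Surface. Both stood more than 50-fold above their highest value elsewhere, with ratios of 57.1 and 62.5, and with the Pachon libraries within 1.2-fold of each other. Rank 8 had 51.5 and 32.4 CPM in Pachon, 0.913 and 0.164 CPM in Tinaja, and 0.0412 and 0.134 CPM in Surface. Its highest value outside Pachon came from 23 reads of Tinaja 1, against 3 reads in Tinaja 2 and 1 and 3 reads in Surface.

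The members with the highest Pachon levels were read in every library. ENSAMXG00000037007, rank 1, had 186 and 228 CPM in Pachon, 11.3 and 11.7 CPM in Tinaja, and 5.48 and 5.77 CPM in Surface. Its mean was 207 ± 29.8 CPM in Pachon, 11.5 ± 0.281 in Tinaja and 5.63 ± 0.204 in Surface (SD, n = 2 each), and the lower Pachon value was 15.9 times the highest other. The populations did not overlap at all for this gene, and Tinaja exceeded Surface 1.96-fold with 0.5 CPM added to both means, just under the limit of 2. Rank 2 had 172 and 141 CPM in Pachon, 9.25 and 8.1 CPM in Tinaja, and 16.8 and 13.7 CPM in Surface, so the order of Tinaja and Surface was turned round.

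Ranks 3 and 4 had a smaller contrast. Rank 3 had 82.5 and 97.3 CPM in Pachon, 25.7 and 11.2 CPM in Tinaja, and 14.3 and 10.5 CPM in Surface. Its ratio of 3.21 was set by Tinaja 1 alone, as the other 3 libraries lay between 10.5 and 14.3 CPM. Rank 4 had 101 and 68.2 CPM in Pachon, 13.3 and 14.7 CPM in Tinaja, and 11.7 and 13.6 CPM in Surface, with the 4 lower libraries close together. Rank 6 had 51.7 and 66 CPM in Pachon, 3.65 and 2.74 CPM in Tinaja, and 2.39 and 1.07 CPM in Surface.

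In all, 27 members reached 1 CPM in some Tinaja or Surface library. Their ratios ran from 3.03 to 15.9 with a median of 3.89, and rank 1 had the highest of them. Across the 83 members the library with the highest value outside Pachon was Tinaja 1 for 26, Tinaja 2 for 16, Surface 1 for 22 and Surface 2 for 14, and the remaining 5 had no read there.

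**Figure D2:**
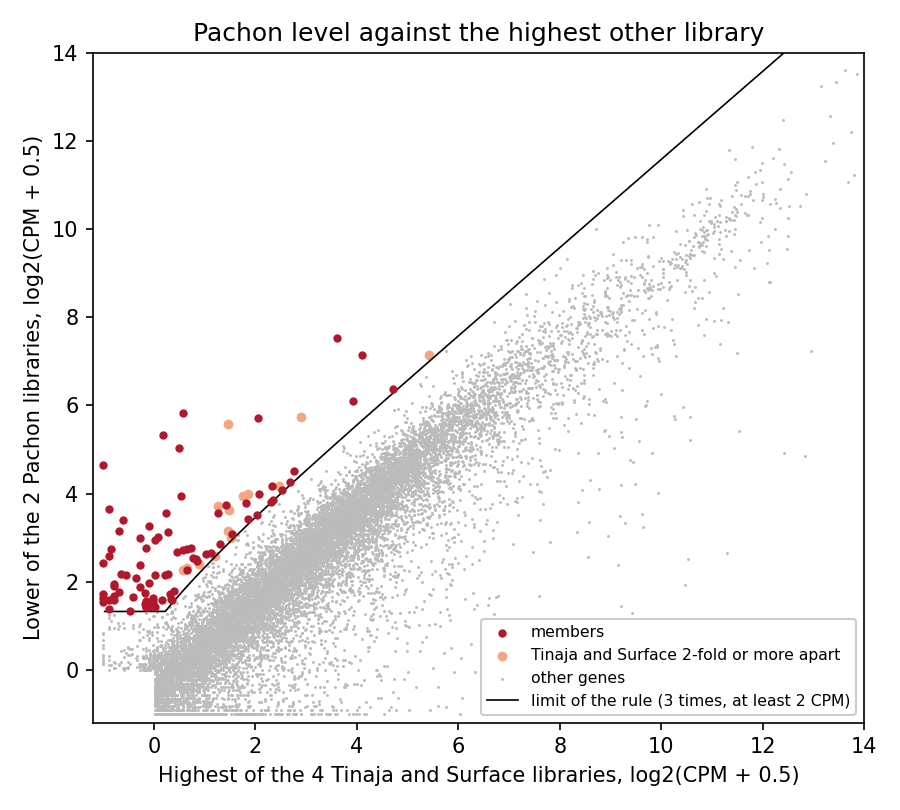
Lower of the 2 Pachon values (vertical) against the highest of the 4 Tinaja and Surface values (horizontal), both as log2(CPM + 0.5), for genes that reached 0.5 CPM on either axis; axes end at 14. The line is the limit of 3 times and 2 CPM. The 83 members and the 14 genes left out for unequal Tinaja and Surface levels lie on or above it.

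The limits of the rule ran through a continuous distribution. Nearest inside the 3-fold limit, rank 22 had 14.4 and 13.4 CPM in Pachon, 4.33 and 2.95 CPM in Tinaja, and 3.83 and 4.43 CPM in Surface, a ratio of 3.03. Just outside it, a gene had 9.16 and 7.86 CPM in Pachon, 0.317 and 1.15 CPM in Tinaja, and 0.618 and 2.64 CPM in Surface, a ratio of 2.98. Ratios from 3 to 3.5 were found for 12 members, and 17 genes that met the other conditions had ratios from 2.5 to 3. At the limit of 2 CPM, the lowest Pachon value of a member was 2.02 CPM, in rank 83, and the nearest gene outside had 1.97 CPM.

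A larger share of members than of other genes at similar levels differed between the 2 Pachon libraries, and Pachon 2 was the higher one for most of them. Over the members the higher Pachon value was 1 to 3.76 times the lower, with a median of 1.24, against a median of 1.15 over the 10123 genes with at least 2 CPM in both. More than 2-fold apart were 10 members (12%), against 2.84% of the 10123 genes. With Pachon means from 2 to 10 CPM this held for 7 of 54 members (13%) and 122 of 4903 genes (2.49%), and from 10 to 250 CPM for 3 of 29 members (10.3%) and 149 of 4784 genes (3.11%). With the same rule turned to Tinaja, 8 of 73 genes were more than 2-fold apart between the libraries of that population. For Surface it was 21 of 110, so such a spread is not particular to the Pachon genes. Pachon 2 exceeded Pachon 1 in 55 members (66.3%) and in 51.6% of the 10123 genes. Members are not independent of each other and share these 2 libraries, so the shares are a description and were not tested.

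Rank 17 showed the widest gap, with 6.22 CPM in Pachon 1 and 23.4 CPM in Pachon 2. Its values were 0.397 and 0.219 CPM in Tinaja, and 0.742 and 1.07 CPM in Surface. Rank 23 leaned the same way, with 7.15 and 20 CPM in Pachon 1 and 2, 0.516 and 0.109 CPM in Tinaja, and 0.0412 and 0.179 CPM in Surface. In these genes the lower Pachon library was 5.79 and 13.9 times the highest of the others. Rank 50, with the second widest gap, had 2.47 and 7.95 CPM in Pachon 1 and 2, 0.516 and 0.602 CPM in Tinaja, and 0.618 and 0.0895 CPM in Surface. Its ratio was lower, at 4, and it was not called against Tinaja in the test over all genes. The reverse was seen in rank 39, with 9.99 and 3.15 CPM in Pachon 1 and 2, and in rank 20, with 20.6 and 7.4 CPM. No other member was more than 2-fold higher in Pachon 1, against 8 that were more than 2-fold higher in Pachon 2.

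**Figure D3:**
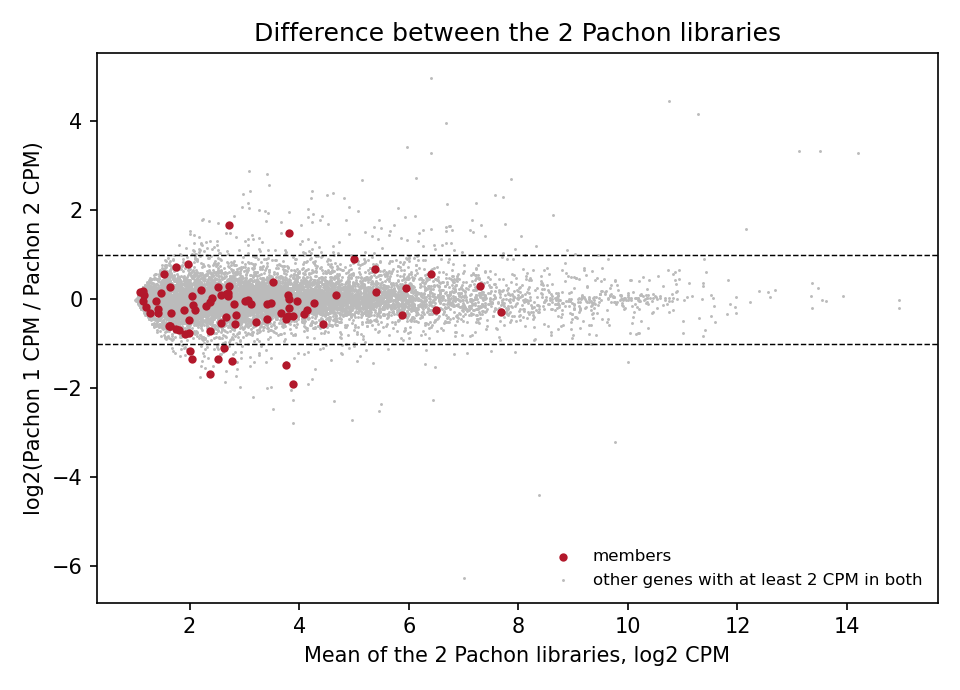
Log2 ratio of Pachon 1 to Pachon 2 (vertical) against the log2 mean of both in CPM (horizontal) for the 10123 genes with at least 2 CPM in each; members are red. Dashed lines mark 2-fold. Of the 10 members outside them, 8 lie on the side of Pachon 2 and 2 on the side of Pachon 1.

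With 0.5 CPM added, the Tinaja and Surface means lay close together for most members, within the bound that the rule set. The median of the members' means was 0.439 CPM in Tinaja and 0.32 CPM in Surface, less than the 0.5 CPM added. At such levels the added value draws the means together, so the bound is easily met. Rank 32, for example, had means of 0.439 CPM in Tinaja and 0.0206 CPM in Surface, and a ratio of 1.8 with 0.5 CPM added. With 0.5 CPM added, the Tinaja mean was 0.527 to 1.96 times the Surface mean with a median of 1.06, and 65 members lay within 1.5-fold. The Tinaja mean was higher for 46 members, the Surface mean for 32, and both were 0 for 5. In single libraries, both Tinaja values exceeded both Surface values for 23 members, the reverse held for 18, and the libraries overlapped or tied for 42. The 42 include the 5 members with 0 in all of these libraries, where no separation was possible. Over all 15282 genes tested, both Tinaja values lay above both Surface values in 30.2% and below them in 30.1%. Members could pass the count filter through their Pachon reads alone, so these shares may not be from genes at like levels.

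Within Surface, rank 16 was read in 1 library only. It had 12.9 and 16.8 CPM in Pachon, 1.03 and 1.04 CPM in Tinaja, and 2.18 and 0 CPM in Surface 1 and 2, which are 53 and 0 reads. At least 10 reads in 1 library of a population and 0 in the other was seen for no other member in any population. In Pachon the rule made this pattern impossible for a member, since both libraries had to reach 2 CPM. Among all genes tested this pattern occurred in 0.0720% in Pachon, 0.0720% in Tinaja and 0.151% in Surface. Rank 34 was absent from both Tinaja libraries at this depth, with 0 reads in each, and had 8 and 9 reads in Surface and 6.28 and 8.06 CPM in Pachon.

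**Figure D4:**
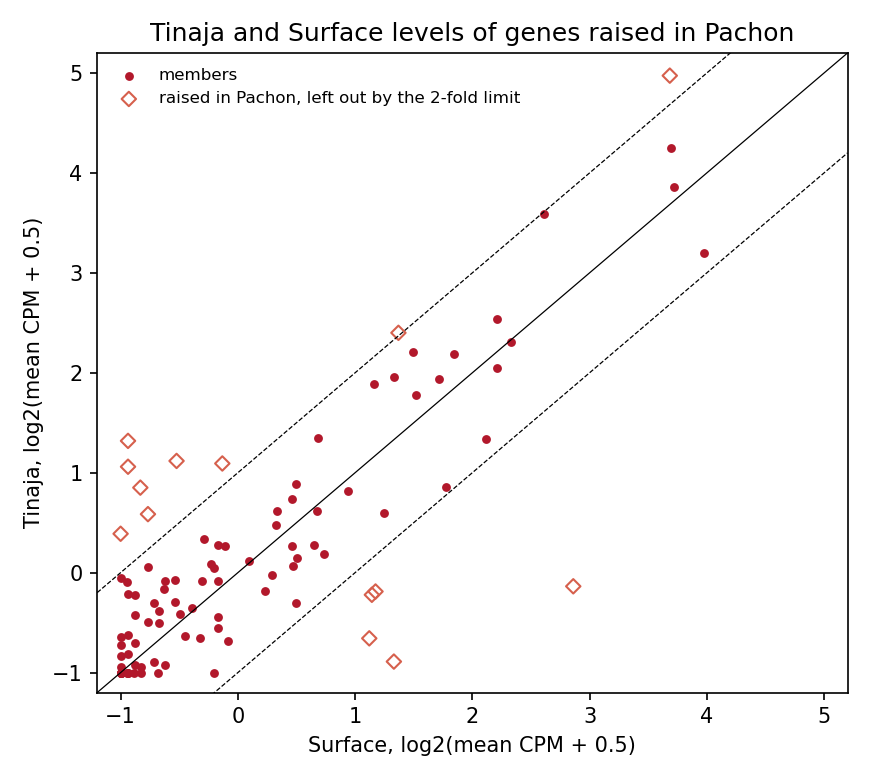
Mean level in Tinaja (vertical) against Surface (horizontal) as log2(mean CPM + 0.5) for the 83 members and the 14 genes raised in Pachon but left out by the 2-fold limit. The solid line marks equal levels and the dashed lines 2-fold. Of the 14 genes, 9 lie above the upper dashed line and 5 below the lower one.

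Among the genes with at least 2 CPM in both Pachon libraries, 97 were at least 3 times higher in Pachon than in any other library. Of these, 14 were not members because Tinaja and Surface were at least 2-fold apart with 0.5 CPM added. Tinaja was the higher of the pair for 9 and Surface for 5. The best read of them had 142 and 141 CPM in Pachon, 42.6 and 19.3 CPM in Tinaja, and 8.2 and 16.5 CPM in Surface, a graded order. The next by the lower Pachon value had 53.2 and 71.8 CPM in Pachon, 0.436 and 0.383 CPM in Tinaja, and 6.6 and 6.93 CPM in Surface, with Tinaja lowest.

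The members were also looked up in a test over all genes, edgeR's quasi-likelihood F-test with Benjamini-Hochberg adjustment and a threshold of 0.05. Of the 83 members, all of which were tested, 82 were called higher in Pachon than in Surface, where 8.8% of all genes tested were called higher and 8.11% lower. Against Tinaja 80 were called higher in Pachon, where 4.47% of all genes were called higher and 4.75% lower. None was called lower in Pachon in either comparison, which the rule fixed. Nothing is read from these counts, since the rule used the same values and the same Pachon libraries stand in both comparisons. The member not called against Surface was rank 16, and those not called against Tinaja were ranks 12, 16 and 50.

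Between Tinaja and Surface 6 members were called, 4 higher and 2 lower in Tinaja, although the rule held their means within 2-fold with 0.5 CPM added. Of all genes tested 8.12% were called higher and 7.66% lower there. The rule bounded this comparison too, and nothing is read from the counts. Those higher in Tinaja were ranks 1, 32, 58 and 72, and those lower were ranks 28 and 34. Ranks 32, 58 and 72 had 18 and 3, 18 and 4, and 10 and 6 reads in Tinaja, and at most 1 in a Surface library. Rank 34 had 0 reads in both Tinaja libraries and 8 and 9 in Surface. Ranks 32, 34, 58 and 72 thus passed the count filter only through their Pachon reads. Rank 28 had 1.47 and 1.15 CPM in Tinaja and 3.09 and 2.77 CPM in Surface. Rank 58 had 0.714 and 0.219 CPM in Tinaja and 0 reads in both Surface libraries. A fit of Tinaja and Surface alone called 1 member in place of 6. Calls over all genes fell as well in that fit, from 2411 of 15282 to 1953 of 14484. That fit applied the count filter to the Tinaja and Surface libraries alone, which ranks 32, 34, 58 and 72 do not pass. They were not tested there, so the fall in members called cannot be compared with that over all genes.

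On the scale of log2 mean CPM with 0.5 added, the median difference of the members was 2.81 for Pachon against Surface, 2.56 for Pachon against Tinaja and 0.09 for Tinaja against Surface. The medians over all 15282 genes were 0, 0.01 and -0.01 in the same comparisons. Scaling by total counts in place of TMM moved the median of all genes to 0.46 for Pachon against Surface and 0.41 for Pachon against Tinaja. The members' medians were then 3.23 and 2.98. With that scaling 85.4% of all calls against Surface and 83% of those against Tinaja were higher in Pachon, compared with 52% and 48.5% with TMM. All 83 members had higher means in Pachon than in Surface and than in Tinaja under either scaling. The rule fixed this outcome, since scaling by total counts raises Pachon relative to the others.

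The same rule turned to the other populations found 73 genes raised only in Tinaja and 110 raised only in Surface, and their order depends on the scaling. With total counts the numbers were 145 for Pachon, of which 82 were members with TMM, 56 for Tinaja and 82 for Surface. The median mean level in the raised population was 6.37 CPM for the Pachon genes, 6.3 CPM for the Tinaja genes and 10.8 CPM for the Surface genes, and the highest was 207, 1092 and 3773 CPM. No read in the other 4 libraries was found for 5, 1 and 2 of them. Whether these sets differ was not tested. Each count also depends on the number of libraries, since the 3-fold condition is easier to meet when fewer values are compared. A rise on leaving out a library is therefore largely fixed by the rule. The Pachon count was 140 without Pachon 1 and 102 without Pachon 2, and it was 124 without Tinaja 1. The Tinaja count was 170 without Tinaja 1 and 102 without Tinaja 2. The Surface count was 231 and 249 without Surface 1 and Surface 2. Of the 140 and the 102 genes found without Pachon 1 and Pachon 2, 82 and 83 were members on all 6 libraries.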

How the data were processed

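The authors deposited whole-number read counts per gene for 6 polyA-selected, strand-specific liver libraries, unnormalised as far as the values show. The submitters' processing notes name bcl2fastq 2.20 and STAR. How reads were counted, with which strand setting, and what was done with multi-mapping reads is not given in the sources used here. Near-identical, overlapping and antisense genes are therefore uncertain. The table's name points to genome build 2 and Ensembl release 96. With edgeR 4.0.16 in R 4.3.3, TMM-scaled CPM were computed from all genes for the rule. The test kept 15282 genes (filter by expression, count minimum 10; 99.95% of reads) and fitted the 6 libraries together, with a mean for each population and 3 residual degrees of freedom. It was tested on simulated data. DESeq2 1.42.0, other scalings, other limits and each library left out were tried as alternatives. Whether replicates are separate fish is not stated, so spread and p-values may be technical. The members and gene lists were chosen with earlier results of these data known; the lists of liver pathways and cell markers could not be matched to identifiers and gave no result. Described singly were members highest by mean Pachon CPM, by ratio (0.5 CPM added), among those with 0 reads elsewhere, most unequal between Pachon libraries, and nearest the limit; others named were chosen after their values were seen.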

Additional observations from a re-analysis of the deposited data

Results flagged for a closer look

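The difference from Surface was unequal in the 2 caves, by edgeR's test of Pachon against Tinaja, for 80 of the 83 members. In that test 4.47% of all genes were called higher in Pachon and 4.75% lower. The members were chosen on this difference, so the count is no separate evidence.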

How the results depend on the processing

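The number of members was 145 with total-count scaling, 45 with a minimum of 5 CPM, 152 with a ratio of 2 and 55 with a ratio of 5; it stayed within 1.5-fold of 83 with a minimum of 1 CPM (115), RLE scaling (83), TMM factors from filtered genes (82), a 1.5-fold limit on Tinaja against Surface (65) and no such limit (97). Leaving out 1 library gave 88 to 140 members, and 77 to 170 genes raised only in Tinaja and 114 to 249 raised only in Surface. Members called higher in Pachon numbered 74 to 80 against Surface and 54 to 83 against Tinaja without 1 library. For Tinaja against Surface the number of members called in either direction was 1 with only these populations in the fit. In that fit, filtered without the Pachon libraries, 1953 of all genes were called, in place of 2411. Both numbers were also lower whenever 1 library was left out. All genes called numbered 4599 with total counts and 2585 with TMM for Pachon against Surface, and 2771 and 1409 for Pachon against Tinaja; leaving out 1 library gave 937 to 2318 and 352 to 1360. For the Pachon comparisons these counts of all genes hold calls in either direction, while the counts of members hold calls higher in Pachon. The labels do not say whether libraries with the same replicate number share anything. Differences between replicates 1 and 2 correlated at -0.114 between Pachon and Tinaja, 0.0412 between Pachon and Surface and 0.0194 between Tinaja and Surface. Such correlations over genes cannot show whether a smaller shared effect was present. With a term for replicate number in the fit 80, 78 and 6 members were called in the 3 comparisons. Of all genes 1086 were called higher in Pachon than in Surface and 511 higher than in Tinaja, against 1345 and 683 in the main fit. Between Tinaja and Surface 1956 were called in either direction, against 2411. DESeq2 called 81, 81 and 7 members. Of the 17502 genes it tested, it called 1419 higher in Pachon than in Surface and 869 higher than in Tinaja. Between Tinaja and Surface it called 2739 of 17071 genes in either direction. With no filter on low counts 77, 77 and 9 members were called, and 22247 genes were tested. Of all genes 1558 were then called higher in Pachon than in Surface and 971 higher than in Tinaja. Between Tinaja and Surface 2833 were called in either direction. The members were chosen on these differences, so their steady counts are no sign of stability. For the 23 members chosen by the rule for described genes, 207 log2 ratios were recomputed, and the lowest was 1.4; the choice of members fixes their sign, so this is no sign of stability. The cause of these changes was not tested. Depth limits the silent members, where a few reads set the ratio.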

Other observations

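Members stood beside each other in the deposited table in 3 pairs of consecutive rows, so that 6 members had a member as a direct neighbour. These 6 were 7.23% of the members, while members made up 0.303% of all rows. Whether this is more than row order alone would give was not tested. The basis of the row order is not given in the sources used here. One pair joined rank 65, with 2.67 and 4.33 CPM in Pachon, 0 and 0 CPM in Tinaja, and 0.0824 and 0.0447 CPM in Surface, to rank 30, with 7.59 and 10.9 CPM in Pachon, 0.556 and 0.328 CPM in Tinaja, and 0.371 and 0.403 CPM in Surface. The other pairs were ranks 70 and 83, and ranks 61 and 59. Reads that fit both genes of a pair may be split between them in a way that is not described.

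Of the 160 genes in the rows directly before and after a member, all of which failed the rule on the same 6 libraries, 103 passed the filter. Against Surface 16 of them (15.5%) were called higher and 16 (15.5%) lower in Pachon by edgeR's test, while 8.8% of all genes were called higher and 8.11% lower. Against Tinaja 10 (9.71%) were higher and 6 (5.83%) lower in Pachon, while 4.47% and 4.75% of all genes were. Within 3 rows on each side, a distance chosen after seeing the data, 13.6% of 295 neighbours were higher in Pachon than in Surface and 10.2% lower, and 7.12% were higher and 6.44% lower than in Tinaja. The median log2 difference of the direct neighbours was -0.08 against Surface and 0.04 against Tinaja. These shares were not tested against those of all genes.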
